A study of Mus musculus with 8 samples.

Results

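Genes of UCP1-positive cells whose level set both white adipose depots apart from brown fat were described here. The set held 966 genes of 22552 in all, or of 3513 whose mean reached 5 FPKM in white or brown fat. A gene was a member where all 5 values of white adipose tissue (WAT) lay above, or all lay below, the 3 values of brown adipose tissue (BAT), with a mean of at least 5 FPKM on the higher side. FPKM is the number of sequenced fragments scaled to transcript length and library size, here summed over the transcripts of a gene and scaled by each library's median ratio to the other libraries (scaled FPKM). The members were thus chosen by their measured values, so their differences between WAT and BAT are given as a description, with no test. The comparison of inguinal with perigonadal WAT was tested over all genes. The minimum was a mean over both depots together, so a gene abundant in 1 depot alone could pass it, and the number of members called between the depots supports nothing.

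The libraries held ribosome-bound RNA pulled down with a rabbit antibody against GFP from UCP1-TRAP mice, in which ribosomes carry a GFP tag in cells that use the Ucp1 promoter. Inguinal WAT gave 3 libraries, perigonadal WAT 2 and BAT 3. All came from females of the strain labelled C57B/6 UCP1-TRAP, aged 6 weeks, so that every group carried the transgene and had the same treatment. Breeding was at 30 °C, weaning at 3 weeks was into room temperature, and the animals spent the last 2 weeks, from week 4 on, at 4 °C. UCP1-positive cells of white depots are called beige adipocytes, and the series is titled for their smooth muscle-like origin. Nothing in the labels ties a library to its own animal, so a p-value reflects how far these libraries scatter, and that scatter may be technical. Since RNA was pooled over a tissue, fewer cells of a type and less RNA per cell cannot be told apart.

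Brown and beige adipocytes burn fatty acids and glucose in mitochondria whose inner membrane is made leaky to protons by UCP1, and release the energy as heat. White adipocytes store triglyceride in a large droplet and secrete hormones such as leptin, adiponectin and resistin. Fatty acids are made in the cytosol from citrate that leaves the mitochondrion: ATP citrate lyase, acetyl-CoA carboxylase, fatty acid synthase and stearoyl-CoA desaturase act in that order, with NADPH as the reducing agent. The transcription factors SREBP1 and ChREBP switch on these enzymes, and SREBP2 switches on those of cholesterol synthesis.

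The libraries were shallow and of unequal depth. Genes with a single transcript held an estimated 198434 (inguinal replicate 3) to 890576 (perigonadal replicate 1) fragments, and 5859 to 9548 genes per library reached 1 FPKM. Of the 772 members with a single transcript, 18 above BAT and 1 below it had fewer than 10 estimated fragments in all on their lower side, and the medians were 115 and 286 fragments. Ucp1, Adipoq and Fabp4 marked all 8 libraries as adipocyte RNA, with Adipoq at 185 to 232 scaled FPKM in WAT and 164 to 220.2 in BAT. Markers of some other cells moved with the depots. The summed level of 20 smooth muscle markers was 102 to 183 scaled FPKM in inguinal WAT, 23.3 to 26.5 in perigonadal WAT and 16.7 to 18.9 in BAT, where 7 of them were listed at 0 in every library. For 26 mammary luminal and milk markers these ranges were 116 to 228, 5.64 to 7.10 and 10.7 to 29.2, with 19 listed at 0 in BAT, Krt8, Krt18 and Epcam among them. Csn3, a casein, was an exception, at 7.58, 14.6 and 24.8 in BAT beside 11.3 to 22.98 in inguinal and 0.263 to 1.21 in perigonadal WAT. For 22 fibroblast and matrix markers they were 114 to 133, 121 to 222 and 51.9 to 67.8, and for 15 basal and myoepithelial markers 28.5 to 41.8, 11.8 to 15.4 and 3.15 to 5.604. The 20 endothelial markers summed to 3.73 to 7.69, 13.0 to 15.2 and 4.15 to 7.04.

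Of the 966 members, 356 lay above BAT (10.1% of the 3513 genes with the minimum) and 610 below it (17.4%). The differences above BAT reached further: 123 of the 356 were more than 2-fold higher in mean, 47 more than 4-fold and 19 more than 10-fold, where 144, 8 and 1 of the 610 were that far below. The median fold was 1.75 above and 1.67 below. Many members lay close to the border between the groups. The nearest WAT and BAT values were less than 1.1-fold apart in 119 members above and 215 below, and more than 2-fold apart in 39 and 16.

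The split into higher and lower members turned on the scaling. With median-ratio scaling 36.9% of the members lay above BAT, and the median difference over all 3513 genes was -0.14 on the scale log2(scaled FPKM + 1), on which all log2 differences are given. In the deposited FPKM the rule found 212 above and 144 below (59.6% above), after quantile normalization 466 and 471 (49.7%), with equal totals after removal of the 10 most abundant genes 630 and 355 (63.96%), and with scaling within 10 bins of transcript length 380 and 487 (43.8%). The median over all genes with the minimum was 0.12, -0.04, 0.05 and -0.05 in that order. A core of 135 genes above BAT and 97 below it met the rule under all 5 scalings. A gene that is nearly absent from BAT reaches the minimum only through WAT and can then hardly fail the rule, so the counts of lists given here describe the members and support nothing.

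The 12 genes farthest above BAT included the hormone Retn, the lipid synthesis enzymes Scd1, Scd2, Acly and Fasn, and the iron carrier Trf. Car3 (chr3:14863538-14872373, mm9), a carbonic anhydrase abundant in adipocytes, had scaled FPKM of 89.3, 88.4 and 154 in inguinal WAT, 273 and 132 in perigonadal WAT and 4.58, 0.992 and 5.08 in BAT, 41.5-fold higher in mean. Every WAT value exceeded every BAT value by more than 10-fold, and the highest library was perigonadal replicate 1. Retn (chr8:3655770-3659818), resistin, had 34.04, 45.1 and 57.5 in inguinal WAT, 95.1 and 93.9 in perigonadal WAT and 0.678, 0 and 5.49 in BAT. Both perigonadal libraries were above the 3 inguinal ones, and 1 BAT library was listed at 0. Cyp2e1 (chr7:147949731-147960876), a cytochrome P450 known for oxidising ethanol, had 42.1, 26.4 and 26.3 in inguinal WAT, 103 and 43.3 in perigonadal WAT and 2.26, 1.97 and 0.962 in BAT. Trf (chr9:103111206-103132616), transferrin, which carries iron in blood, had 15.2, 30.3 and 34.5 in inguinal WAT, 53.5 and 35.8 in perigonadal WAT and 2.40, 1.03 and 0.806 in BAT. These genes rested on 21, 8.5 and 16 estimated fragments over the BAT group for Car3, Cyp2e1 and Trf. Cryab, a small heat shock protein, had 5.0, 21.3 and 9.73 in inguinal WAT, 14.1 and 15.8 in perigonadal WAT and 0.522, 0.507 and 1.06 in BAT, with 4 estimated fragments in BAT in all. Mup19, of the major urinary proteins, had 11.3, 11.2 and 26.9 in inguinal WAT, 1.26 and 12.5 in perigonadal WAT and 0.663, 0.964 and 0 in BAT, and Cufflinks divides fragments between the near-identical genes of that family, so its value is uncertain.

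**Figure D1:**
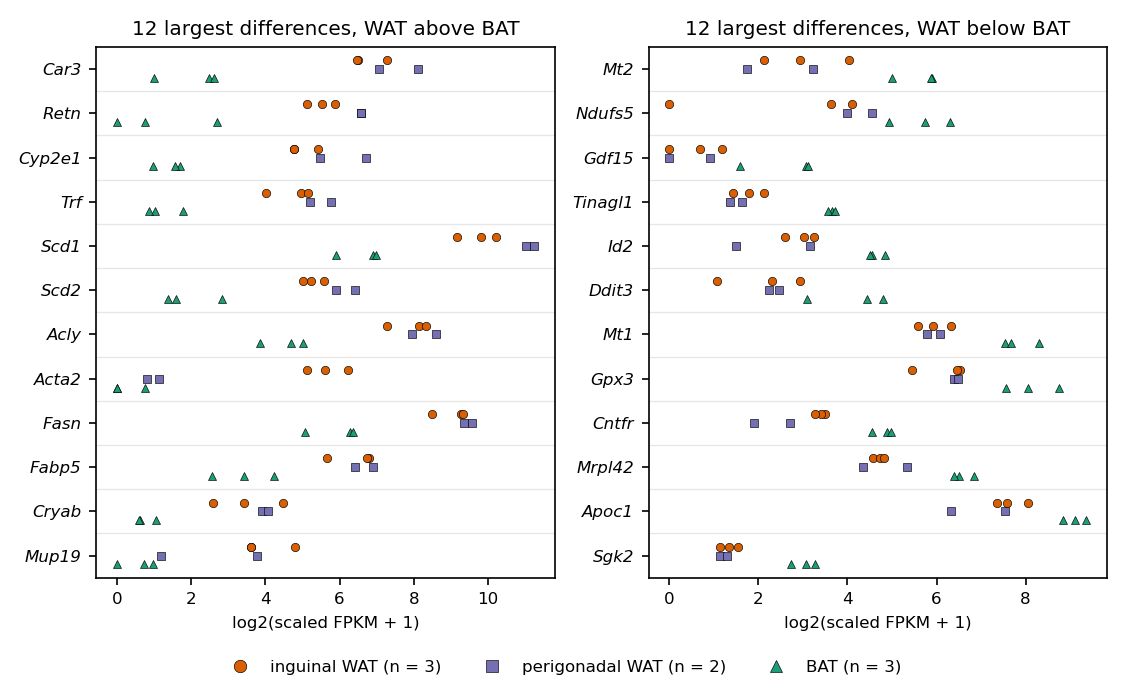
Level in each library, as log2(scaled FPKM + 1), of the 12 members farthest above BAT (left) and the 12 farthest below it (right), 1 gene per row. Circles are inguinal WAT (n = 3), squares perigonadal WAT (n = 2) and triangles BAT (n = 3). No triangle lies among the circles and squares of its gene, since that chose the members, but the perigonadal squares of Acta2 and 1 of Mup19 lie next to the BAT values.

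Fatty acid synthesis was the list with the highest share of members above BAT among lists with at least 10 genes at the minimum. Of its genes with the minimum mean, 19 of 22 lay above BAT and 0 below, with a median log2 difference of 0.97 beside -0.14 over all genes, and 18 or 19 lay above under each of the other 4 scalings. Scd1 (chr19:44468940-44482199), a stearoyl-CoA desaturase, which puts the double bond into stearate and palmitate, had scaled FPKM of 569, 1183 and 891 in inguinal WAT, 2415 and 2094 in perigonadal WAT and 58.8, 118 and 124 in BAT. The mean was 1431 ± 791 in WAT (SD, n = 5) and 100.2 ± 36.05 in BAT (SD, n = 3), 14.3-fold apart, and the perigonadal libraries held the highest values. Scd2, its paralog, had 31.4, 46.4 and 36.1 in inguinal WAT, 58.5 and 84.2 in perigonadal WAT and 1.99, 1.58 and 6.05 in BAT, 16-fold higher in mean. Scd2 shares 61 nt on the same strand with Mir5114, so how fragments were divided between them is uncertain. Summed over both, the values were 52.4, 94.6 and 90.4 in inguinal WAT, 107 and 111 in perigonadal WAT and 1.99, 1.58 and 31.2 in BAT. Fasn (chr11:120667272-120685861), fatty acid synthase, had 361, 616 and 639 in inguinal WAT, 657 and 755 in perigonadal WAT and 32.6, 76.6 and 81.6 in BAT. The mean was 606 ± 146 in WAT (SD, n = 5) and 63.6 ± 26.96 in BAT (SD, n = 3), 9.52-fold apart. Its lowest WAT library, inguinal replicate 1, was 4.43-fold above the highest BAT library. Acly (chr11:100337666-100389314), ATP citrate lyase, which turns exported citrate into acetyl-CoA, had 155, 282 and 322 in inguinal WAT, 245 and 390.1 in perigonadal WAT and 13.6, 24.7 and 31.4 in BAT, 12.01-fold higher. The same library of inguinal WAT was the lowest, and BAT replicate 1 was the lowest BAT library for Fasn, Acly and Scd1.

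Every step of that chain had a member above BAT. Slc25a1, the carrier that exports citrate from mitochondria, was 5.76-fold higher in mean, and the acetyl-CoA carboxylase Acaca 6.10-fold. Acss2, which makes acetyl-CoA from acetate, was 4.59-fold higher. The elongases Elovl6 and Elovl5 were 1.99-fold and 1.79-fold higher. Thrsp, a lipogenic protein induced by thyroid hormone, had 381, 535 and 548 in inguinal WAT, 444 and 686 in perigonadal WAT and 145, 181 and 212 in BAT. Hsd17b12, the ketoreductase of fatty acid elongation, had the smallest ratio of the list, 1.47-fold. Among the regulators, Srebf1 (SREBP1) was 1.93-fold and Mlxipl (ChREBP) 2.24-fold higher. Slc25a1, Acaca, Acss2, Elovl6, Elovl5, Srebf1 and Mlxipl were named after their values were seen. Of 9 NADPH-supplying genes with the minimum, 4 lay above BAT and 0 below: Me1, malic enzyme, had 223, 292 and 369 in inguinal WAT, 256 and 352 in perigonadal WAT and 42.6, 45.3 and 46.03 in BAT, 6.69-fold higher. Tkt and Pgd, of the pentose phosphate pathway, were 2.13-fold and 1.79-fold higher, and Idh1, cytosolic isocitrate dehydrogenase, 1.72-fold.

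Cholesterol synthesis showed the same direction. Of its genes with the minimum, 12 of 15 lay above BAT and 0 below (median log2 difference 1.13), and the count was 12 under every scaling. With a minimum mean of 10 it was 6. Insig1, which holds the SREBP complex in the endoplasmic reticulum when sterol is plentiful, had scaled FPKM of 55.4, 68.05 and 60.1 in inguinal WAT, 78.7 and 109 in perigonadal WAT and 24.3, 23.4 and 31.6 in BAT. Sc5d, a sterol desaturase, had 64.6, 68.1 and 62.6 in inguinal WAT, 65.7 and 96.97 in perigonadal WAT and 31.7, 32.8 and 30.9 in BAT. Both were highest in perigonadal replicate 2. Fdps, farnesyl diphosphate synthase, had 18.3, 21.2 and 40.8 in inguinal WAT, 26.4 and 31.1 in perigonadal WAT and 10.4, 6.57 and 10.3 in BAT, 3.03-fold higher, and Pmvk, phosphomevalonate kinase, was 2.80-fold higher. Cyp51, Lss, Idi1, Sc4mol, Dhcr7, Sqle and Nsdhl also lay above BAT, between 2.10-fold and 4.93-fold higher.

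The promoters of both lists were searched for the E-box CACGTG, a palindrome bound by many factors, SREBP and ChREBP among them. It occurred in 4 of 20 promoter windows (250 bases before an annotated start, RefSeq, GRCm38.p6) of the fatty acid synthesis members and 3 of 12 of the cholesterol members, beside 9.85% of the windows of all genes with the minimum and 6.02% of all 32851 windows. The sterol regulatory element, searched as TCACNCCAC, occurred in 1 of the 20 and 0 of the 12 windows. Its share was 1.01% in the windows of all genes with the minimum and 1.05% in all windows. A match describes these letters only. The windows of Slc25a1 (chr16:17928220-17928469, minus strand) and Mlxipl (chr5:135089640-135089889, plus strand) are shown as those of a carrier and a regulator above BAT, with the E-box in capitals.
Slc25a1: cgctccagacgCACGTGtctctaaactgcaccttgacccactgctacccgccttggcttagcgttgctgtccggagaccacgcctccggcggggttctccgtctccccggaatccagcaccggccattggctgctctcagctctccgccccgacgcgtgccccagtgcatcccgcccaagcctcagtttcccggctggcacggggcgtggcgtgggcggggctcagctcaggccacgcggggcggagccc
Mlxipl: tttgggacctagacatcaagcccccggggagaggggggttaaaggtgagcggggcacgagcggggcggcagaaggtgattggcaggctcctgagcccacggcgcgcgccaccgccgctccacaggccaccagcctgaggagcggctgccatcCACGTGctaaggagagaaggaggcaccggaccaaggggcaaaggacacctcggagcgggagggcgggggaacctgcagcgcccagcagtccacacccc

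Glucose handling leaned the same way by less. Of glucose uptake, glycolysis and glycogen genes with the minimum, 11 of 23 lay above BAT and 0 below (median 0.46), and the count ran from 7 to 17 under the other scalings. Aldoa, aldolase A, had scaled FPKM of 857, 1136 and 1213 in inguinal WAT, 808 and 1199 in perigonadal WAT and 645, 769 and 708 in BAT, and Ldha, lactate dehydrogenase A, 296, 313 and 469 in inguinal WAT, 252 and 349.7 in perigonadal WAT and 187, 203 and 212 in BAT. The lowest WAT value of Aldoa was 1.05 times the highest BAT value, so the groups barely parted. Pkm2 and Gpi1 were 1.57-fold and 1.40-fold higher. Gapdh, a gene of the same list often used as a reference, was no member under median-ratio scaling: its WAT values ran from 747 to 1273 and its BAT values from 546 to 774. Gapdh met the rule after quantile normalization, with equal totals and with scaling within length bins. Of 12 genes of pyruvate entry and pyruvate dehydrogenase with the minimum, 2 lay above BAT and 1 below, with 4 above without perigonadal replicate 1 and 2 to 5 under the other scalings. Pdha1, a subunit of pyruvate dehydrogenase, was 1.56-fold and Pdk1, a kinase that inhibits it, 3.36-fold higher. Brp44, a subunit of the carrier that brings pyruvate into mitochondria, lay below BAT, with 304, 346 and 360.5 in inguinal WAT, 224 and 323 in perigonadal WAT and 402, 407 and 449 in BAT, and was named after its value was seen.

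Lipid uptake, storage and adipocyte identity split within their lists. Of 15 fatty acid uptake genes with the minimum, 6 lay above BAT and 2 below. Slc27a1, a fatty acid transport protein, had 32.8, 48.8 and 34.5 in inguinal WAT, 85.6 and 46.9 in perigonadal WAT and 6.21, 5.72 and 5.66 in BAT, 8.47-fold higher. Fabp5 had 49.2, 109.6 and 106 in inguinal WAT, 84.1 and 118 in perigonadal WAT and 4.92, 9.68 and 17.6 in BAT, 8.69-fold higher. Fabp3, another fatty acid-binding protein, lay on the other side with 284, 340.4 and 326 in inguinal WAT, 268 and 317 in perigonadal WAT and 579, 521 and 801 in BAT. So did Slc27a2, 3.18-fold below BAT, which was named after its value was seen. Fabp4, the abundant binding protein of all adipocytes, was no member under median-ratio scaling, with WAT values of 2941 to 3938 and BAT values of 2827 to 3287. Fabp4 met the rule with equal totals and with scaling within length bins.

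Droplet proteins and lipases differed by small ratios: 6 of 17 lay above BAT and 1 below, and only 2 lay above in the deposited FPKM. Cidec, which fuses droplets, had 149, 232 and 208 in inguinal WAT, 221 and 205 in perigonadal WAT and 89.7, 120.0 and 119 in BAT. Plin1, which coats them, and the lipases Lipe and Pnpla2 were 1.42-fold, 1.33-fold and 1.29-fold higher. Cidea was the gene of the list on the other side, with 256, 319.5 and 273 in inguinal WAT, 244 and 308 in perigonadal WAT and 349, 324 and 421 in BAT. Its nearest WAT and BAT values were 1.01-fold apart, and it met the rule under median-ratio scaling alone.

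Of white adipocyte markers with the minimum, 5 of 11 lay above BAT and 1 below. Besides Car3 and Retn these were Cfd (adipsin, a complement protease) with 127, 76.96 and 214 in inguinal WAT, 237 and 213 in perigonadal WAT and 44.96, 27.3 and 20.7 in BAT, Hp (haptoglobin), 2.03-fold higher, and Rbp4, which carries retinol, with 3.11, 3.79 and 6.50 in inguinal WAT, 14.3 and 10.9 in perigonadal WAT and 2.29, 0.536 and 2.56 in BAT. The gene below BAT was Adig, 1.68-fold lower, named after its value was seen. Lep, leptin, missed the minimum at 0.363 to 3.73 in WAT and 0 to 0.210 in BAT. Of 23 pan-adipocyte genes 11 lay above BAT and 1 below, or 3 and 0 in the deposited FPKM. Adiponectin was not among them: its ranges overlapped. The pan-adipocyte members above BAT other than Cfd and Retn were at most 1.85-fold higher.

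Cytoskeleton and matrix genes also had members above BAT, and here the markers of other cells given above moved with them; their part in these differences was not tested. Of MRTF and SRF targets with the minimum, 7 of 12 lay above BAT and 1 below. Acta2 and Csrp1 were among the 7, and both reached the minimum mean through inguinal WAT alone, with perigonadal values close to BAT. Actg1, cytoplasmic gamma-actin, had 101, 107 and 97.7 in inguinal WAT, 80.1 and 111 in perigonadal WAT and 45.6, 42.2 and 69.8 in BAT, and Myh9, non-muscle myosin, was 1.83-fold higher. Actb, beta-actin, was no member under median-ratio scaling. All 5 collagen chains with the minimum lay above BAT, or 3 with scaling within length bins or without perigonadal replicate 1. Col4a1, of basement membranes, had 13.7, 11.2 and 14.9 in inguinal WAT, 13.2 and 10.2 in perigonadal WAT and 4.47, 6.33 and 7.21 in BAT, and Col3a1, of fibrillar matrix, 8.45, 5.23 and 14.6 in inguinal WAT, 24.6 and 8.47 in perigonadal WAT and 5.0, 2.33 and 5.11 in BAT. The type IV chains of WAT varied little, whereas Col3a1 was highest in perigonadal replicate 1 and its closest values were 1.02-fold apart. Sparc, a matrix-binding glycoprotein, was 1.66-fold and Gsn, gelsolin, 5.62-fold higher.

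Of 8 genes of antigen presentation with the minimum, 4 lay above BAT, all of MHC class I. B2m, the light chain, had 101, 116 and 80.4 in inguinal WAT, 105 and 129 in perigonadal WAT and 39.7, 37.3 and 40.02 in BAT. The heavy chains H2-K1 and H2-D1 were 1.69-fold and 2.07-fold higher, and H2-Q10 8.34-fold; the heavy chains are alike in sequence, so how fragments were divided between them is uncertain. Of 4 genes of the growth hormone axis, Ghr, the receptor, with 29.6, 23.9 and 28.2 in inguinal WAT, 42.9 and 29.7 in perigonadal WAT and 18.9, 18.2 and 10.3 in BAT, and the binding proteins Igfbp5 and Igfbp7 lay above BAT. In the deposited FPKM, after quantile normalization or with scaling within length bins 2 of the 4 lay above, and with equal totals 4. Only 1 lay above under all 5 scalings. Of 20 genes of endoplasmic reticulum stress 4 lay above (P4hb, Derl1, Dnajb9 and Dnajc3, 1.25-fold to 2.06-fold), 0 in the deposited FPKM and 7 without inguinal replicate 2 or BAT replicate 1. Car5b, a mitochondrial carbonic anhydrase, was 9.11-fold higher with values of 19.1, 16.1 and 14.5 in inguinal WAT, 24.4 and 17.8 in perigonadal WAT and 2.11, 2.0 and 1.94 in BAT. In all, 6 of 26 peroxisomal genes lay above, among them Cat, catalase (1.59-fold), and Ehhadh, of peroxisomal beta-oxidation (2.15-fold), and 2 lay below, or 1 and 0 in the deposited FPKM.

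**Figure D2:**
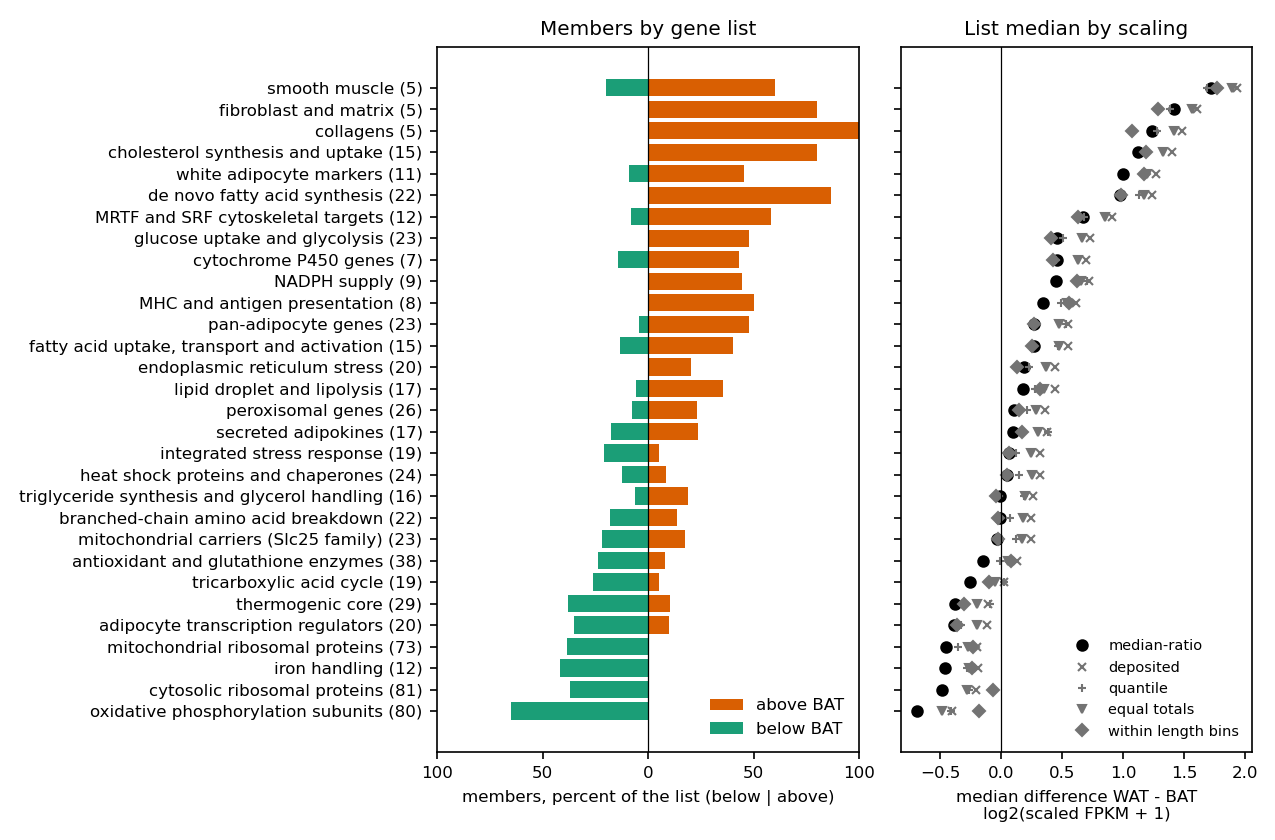
Left, members below BAT (green, leftward) and above BAT (orange, rightward) as percent of each list's genes with the minimum mean, whose number stands in parentheses, for lists with at least 5 such genes and 4 members. Right, the list's median difference between WAT and BAT, log2(scaled FPKM + 1), under median-ratio scaling (black circles) and 4 other scalings (grey): lipid synthesis stays near 1 or above, and oxidative phosphorylation moves from -0.69 to -0.18 with scaling within length bins.

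The genes farthest below BAT included metal-binding, stress-response and signalling genes. Mt2 (chr8:96696518-96697467, mm9) and Mt1 (chr8:96702989-96704227) code for metallothioneins, small proteins that bind zinc and copper. Mt2 had scaled FPKM of 3.33, 15.5 and 6.69 in inguinal WAT, 8.28 and 2.32 in perigonadal WAT and 31.01, 58.3 and 57.6 in BAT, and Mt1 had 59.4, 79.8 and 46.7 in inguinal WAT, 54.1 and 66.5 in perigonadal WAT and 186, 313 and 204 in BAT. For Mt1 the mean was 61.3 ± 12.6 in WAT (SD, n = 5) and 234 ± 68.8 in BAT (SD, n = 3). BAT held 6.78-fold and 3.82-fold the WAT mean, and both genes met the rule under all 5 scalings. The other 4 genes of the metallothionein and zinc list with the minimum were no members. Gpx3 (chr11:54716355-54723889), a secreted glutathione peroxidase, had 42.8, 90.9 and 86.6 in inguinal WAT, 83.6 and 88.7 in perigonadal WAT and 187, 429 and 265 in BAT. Id2, an inhibitor of helix-loop-helix factors, had 8.57, 5.06 and 7.17 in inguinal WAT, 1.81 and 7.89 in perigonadal WAT and 27.8, 22.4 and 21.9 in BAT, and Cntfr, a receptor chain for ciliary neurotrophic factor, 10.3, 9.59 and 8.58 in inguinal WAT, 5.53 and 2.76 in perigonadal WAT and 28.8, 30.4 and 22.3 in BAT. Tinagl1, a matrix-associated protein, had 2.43, 1.67 and 3.36 in inguinal WAT, 1.55 and 2.12 in perigonadal WAT and 11.6, 10.9 and 12.1 in BAT, with all WAT values under all BAT values by at least 3.23-fold. Apoc1, an apolipoprotein, and Sgk2, a kinase, were 3.17-fold and 4.95-fold higher in BAT.

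Ndufs5, a complex I subunit, ranked next to Mt2 below BAT in the files, with 16.04, 11.4 and 0.000152 in inguinal WAT, 14.9 and 22.6 in perigonadal WAT and 78.04, 52.6 and 29.4 in BAT. Its exons share 484 nt on the same strand with BC002163, so the fragments of both cannot be told apart. Summed over both, the values were 145, 169.6 and 176 in inguinal WAT, 91.1 and 120.1 in perigonadal WAT and 237, 246 and 219.6 in BAT, a smaller ratio between BAT and WAT in the same direction.

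Metallothionein genes are switched on by the factor MTF1 through metal response elements, searched here as TGCGCNC or TGCACNC on both strands. Both promoters held it, Mt1 at 1 place and Mt2 at 3 places, as did 32.1% of the windows of members below BAT, 30.2% of those above, 30.5% of those of all genes with the minimum and 21.4% of all windows, so the letters are common. The windows (RefSeq, GRCm38.p6, plus strand) are chr8:94178839-94179088 for Mt1 and chr8:94172368-94172617 for Mt2, shown because both metallothioneins among the members lay below BAT, with the matches in capitals.
Mt1: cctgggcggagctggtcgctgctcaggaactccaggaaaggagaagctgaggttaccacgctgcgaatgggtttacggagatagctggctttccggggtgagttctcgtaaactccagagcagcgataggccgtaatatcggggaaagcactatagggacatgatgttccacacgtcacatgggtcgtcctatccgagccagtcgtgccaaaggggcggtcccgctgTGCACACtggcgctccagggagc
Mt2: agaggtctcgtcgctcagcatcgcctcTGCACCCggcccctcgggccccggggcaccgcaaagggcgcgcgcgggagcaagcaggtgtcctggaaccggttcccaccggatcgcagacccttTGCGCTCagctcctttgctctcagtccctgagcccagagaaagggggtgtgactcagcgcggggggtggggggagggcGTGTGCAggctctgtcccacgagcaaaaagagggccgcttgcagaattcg

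The integrated stress response, in which the factors ATF4 and DDIT3 raise genes of amino acid supply, had 4 of 19 genes below BAT and 1 above, where the share below is near the 17.4% of all genes, and the list's median log2 difference was 0.07. With equal totals 3 lay below and 5 above. Gdf15, a secreted hormone of stressed cells, had 0, 0.605 and 1.26 in inguinal WAT, 0.875 and 0 in perigonadal WAT and 7.42, 1.99 and 7.64 in BAT, an estimated 10 fragments over the 5 WAT libraries against 41 in BAT. Ddit3 (CHOP) had 1.09, 3.95 and 6.59 in inguinal WAT, 4.51 and 3.69 in perigonadal WAT and 20.7, 7.47 and 26.9 in BAT, and Atf3, also an immediate early gene, 2.48, 3.26 and 3.93 in inguinal WAT, 4.56 and 3.52 in perigonadal WAT and 11.5, 6.11 and 22 in BAT. In these 3 genes BAT replicate 2 lay far below BAT replicates 1 and 3, and for Ddit3 it was 1.13 times the highest WAT value. Ddit3 overlaps Mars on the other strand by 68 nt. Asns, asparagine synthetase, had 28.4, 22.5 and 27.5 in inguinal WAT, 18.4 and 20.3 in perigonadal WAT and 32.8, 30.4 and 31.1 in BAT. The gene above BAT was Psph, of serine synthesis, 1.75-fold higher and named after its value was seen. Gdf15 alone of the 4 genes met the rule under all 5 scalings. Btg2, another immediate early gene, had 1.12, 1.06 and 1.44 in inguinal WAT, 1.45 and 0.485 in perigonadal WAT and 7.09, 1.58 and 6.91 in BAT, with the same low BAT replicate 2.

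Genes of this response carry a C/EBP-ATF response element, searched as TGATGNAA on both strands. It occurred in 2 of 6 promoter windows of these members, beside 1.91% of the windows of all genes with the minimum and 3.45% of all windows. Those 2 windows (RefSeq, GRCm38.p6, minus strand), of Atf3 at chr1:191183334-191183583 and of Asns at chr6:7693210-7693459, are shown with the match in capitals.
Atf3: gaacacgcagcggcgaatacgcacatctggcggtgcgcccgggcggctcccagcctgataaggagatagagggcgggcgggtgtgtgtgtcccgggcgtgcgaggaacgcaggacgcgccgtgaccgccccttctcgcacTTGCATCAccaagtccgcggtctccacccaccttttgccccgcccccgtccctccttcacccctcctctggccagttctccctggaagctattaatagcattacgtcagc
Asns: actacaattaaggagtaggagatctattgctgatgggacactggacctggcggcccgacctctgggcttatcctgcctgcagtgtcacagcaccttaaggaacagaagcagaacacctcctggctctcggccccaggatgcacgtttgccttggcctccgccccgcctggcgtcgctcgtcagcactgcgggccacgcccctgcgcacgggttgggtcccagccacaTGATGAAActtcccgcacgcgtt

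Of the thermogenic core, 11 of 29 genes with the minimum lay below BAT and 3 above (median log2 difference -0.38), or 3 and 0 in the deposited FPKM. Ucp1 (chr8:85814247-85822355), whose promoter marks the cells, had scaled FPKM of 1166, 1145 and 1087 in inguinal WAT, 869 and 1113 in perigonadal WAT and 1521, 1746 and 1482 in BAT, with means of 1076 ± 119.6 in WAT (SD, n = 5) and 1583 ± 142 in BAT (SD, n = 3). It was 1.47-fold higher in BAT in mean, and it did not meet the rule in the deposited FPKM or after quantile normalization. Dio2, which activates thyroid hormone, had 25.97, 16.97 and 13.1 in inguinal WAT, 15.6 and 18.6 in perigonadal WAT and 41.6, 37.5 and 30.8 in BAT. Cox8b and Cox7a1, the cytochrome c oxidase isoforms of muscle and brown fat, set BAT apart further: Cox8b had 713, 675 and 629 in inguinal WAT, 464 and 725 in perigonadal WAT and 1864, 2102 and 1503 in BAT. Cox7a1 had 370.1, 477 and 483 in inguinal WAT, 216 and 476 in perigonadal WAT and 1094, 1287 and 964 in BAT. In both, perigonadal replicate 1 was the lowest library, and the nearest values were 2.07-fold and 2.0-fold apart. The genes above BAT were Ucp3, an uncoupling protein of the same family (2.49-fold), Adrb3, the beta3-adrenergic receptor of adipocytes (1.77-fold), and Oplah (1.40-fold), all named after their values were seen. Ppargc1a, the coactivator of mitochondrial biogenesis, was no member, with 4.32 to 8.35 in WAT and 5.32 to 14.6 in BAT.

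**Figure D3:**
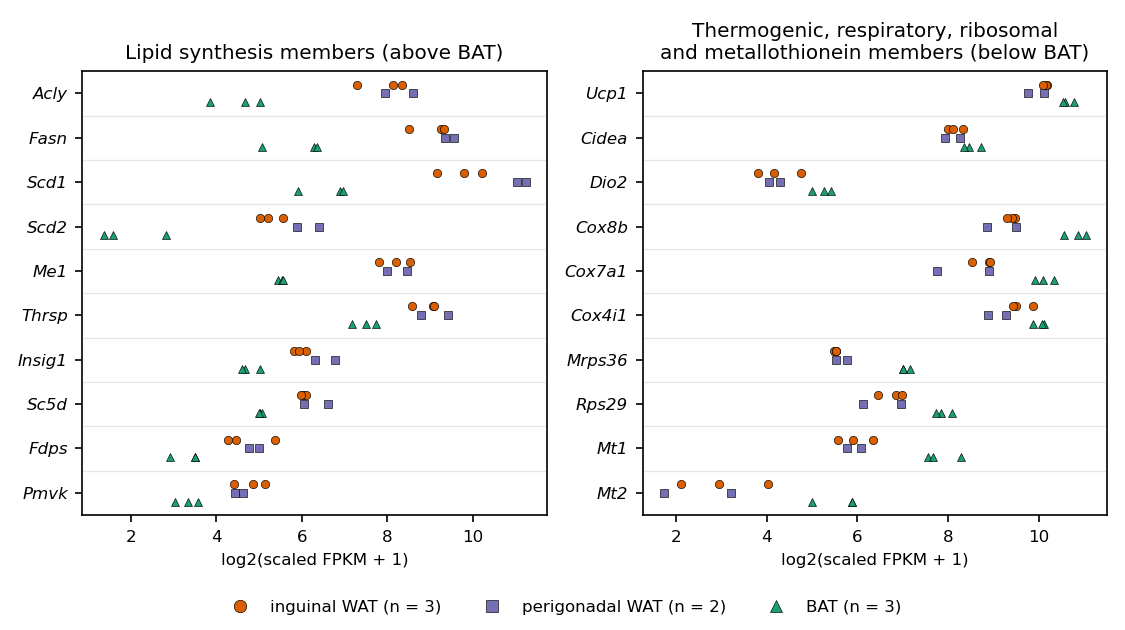
Level in each library, as log2(scaled FPKM + 1), of 10 lipid synthesis members above BAT (left) and 10 thermogenic, respiratory, ribosomal and metallothionein members below BAT (right). Circles are inguinal WAT, squares perigonadal WAT and triangles BAT. Gaps between groups are wide for Scd1, Scd2, Fasn and Acly and narrow for Ucp1, Cidea and Cox4i1.

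Subunits of the respiratory chain and of ribosomes were numerous among the members below BAT. Of the oxidative phosphorylation subunits with the minimum, 52 of 80 lay below BAT and 0 above (median -0.69). Of the mitochondrial ribosomal proteins 28 of 73 lay below and 0 above (median -0.46), and of the cytosolic ones 30 of 81 and 0 (median -0.48). In the deposited FPKM 32, 10 and 13 of these lists lay below. Cox8a had 385, 408 and 376 in inguinal WAT, 291 and 418 in perigonadal WAT and 784, 972 and 699 in BAT, and Cox4i1 had 724, 691 and 933 in inguinal WAT, 468 and 619 in perigonadal WAT and 1110.2, 1079 and 939 in BAT. Cox4i1 barely parted, with its nearest values 1.01-fold apart. Mrps36 had 43.7, 44.98 and 45.03 in inguinal WAT, 45.2 and 53.8 in perigonadal WAT and 128, 142 and 128 in BAT, and Mrpl42 was 3.57-fold higher in BAT. The WAT values of Mrps36 lay within a narrow range, far from BAT. Rps29 had 114, 126 and 86.7 in inguinal WAT, 68.9 and 124 in perigonadal WAT and 229.8, 272 and 213 in BAT, and Rpl41 and Rplp2 were 1.98-fold and 2.24-fold higher in BAT. Ribosomal protein genes have many processed copies, which makes their values uncertain.

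These genes are short, and the difference between WAT and BAT followed transcript length across all genes. The longest transcript of members had a median of 1392 nt below BAT, 2875 nt above it and 2024 nt over all genes with the minimum. Among the shortest of 10 equal bins of genes (up to 697 nt) 37.2% lay below BAT and 0.852% above, and the median log2 difference was -0.68. Among the longest (from 4657 nt) these were 8.81%, 21.3% and 0.12. Perigonadal replicate 1 stood farthest out: its median level in the shortest bin was 0.603 of the typical library, where the BAT libraries had 1.23 to 1.46. With scaling within length bins, 23 of 80 respiratory subunits lay below BAT and 1 above (median -0.18). Of 73 mitochondrial ribosomal proteins these were 16 and 0, and of 81 cytosolic ones 11 and 4 (median -0.07). Under that scaling 487 genes lay below BAT and 380 above in all, and the median over the 3513 genes with the minimum was -0.05. The cytosolic ribosomal proteins thus had a median near that of all genes. Without perigonadal replicate 1 and under median-ratio scaling, 52 respiratory subunits lay below. How much of the lower level of these genes goes with their length and how much with their function cannot be told apart here. Cox8b, Cox7a1, Cox8a, Mrps36, Mrpl42, Rps29 and Rplp2 met the rule under all 5 scalings.

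**Figure D4:**
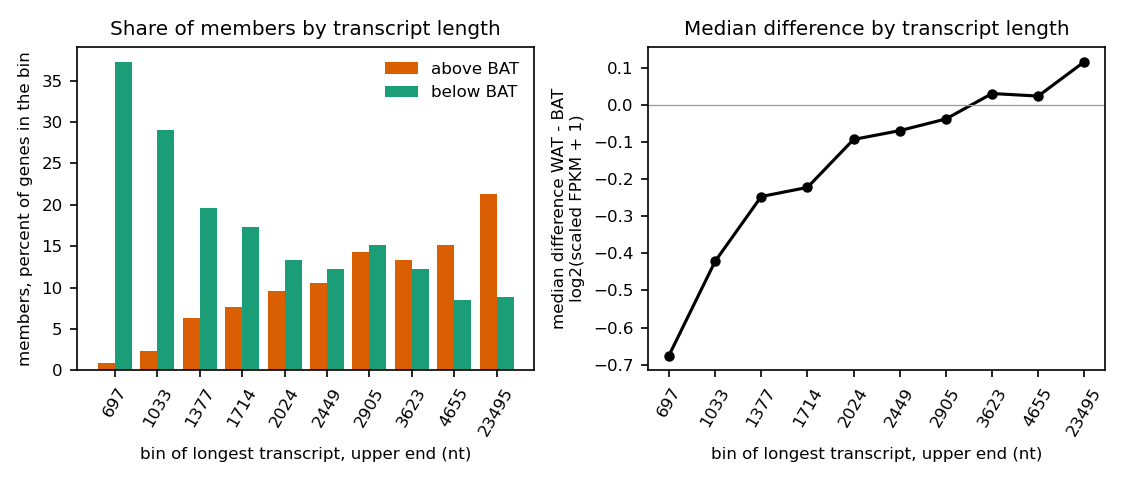
Left, percent of genes with the minimum mean that lay above BAT (orange) or below BAT (green) in 10 bins of longest transcript length, marked by the bin's upper end in nt. Right, the median difference between WAT and BAT in each bin, log2(scaled FPKM + 1). The share below BAT falls from 37.2% to 8.81% and the share above rises from 0.852% to 21.3% from the shortest to the longest bin.

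Antioxidant genes, iron genes and regulators also had members on the lower side. Over all genes with the minimum 17.4% lay below BAT and 10.1% above. The shares below BAT of the antioxidant, Slc25 and branched-chain lists given here were not far from the former. Of 38 antioxidant and glutathione genes 9 lay below BAT and 3 above, or 4 and 6 with scaling within length bins. Gpx4, which reduces lipid peroxides, had 311, 351 and 373 in inguinal WAT, 251 and 364 in perigonadal WAT and 438, 582 and 449 in BAT, and Prdx5, a mitochondrial peroxiredoxin, and Sod1 were 1.51-fold and 1.35-fold higher in BAT. Of 12 iron genes 5 lay below and 0 above, among them the ferritin chains Fth1 and Ftl1 and the transferrin receptor Tfrc (1.76-fold). Under the other 4 scalings no more than 2 of them lay below, and with equal totals 2 lay above and 0 below, while Trf, which is not on the list, lay above BAT under all 5. Of 20 adipocyte transcription regulators 7 lay below and 2 above, or 1 and 2 in the deposited FPKM. Esrra, the estrogen-related receptor that drives oxidative genes, had 25.6, 26.96 and 28.03 in inguinal WAT, 18.8 and 24.4 in perigonadal WAT and 41.1, 46.4 and 38.6 in BAT. Nr1h3 (the liver X receptor alpha), Nr2f6 and Ebf2, a factor of brown adipocytes, were 1.67-fold, 1.45-fold and 2.38-fold higher in BAT. Classical brown markers had 2 members below BAT of 3 with the minimum, Ebf2 and Fbxo31. The count was 0 in the deposited FPKM and at a minimum mean of 10, and 1 with equal totals or without inguinal replicate 1 or 2, perigonadal replicate 1 or 2, or BAT replicate 3. Of the mitochondrial carriers of the Slc25 family 5 of 23 lay below, with Slc25a39, of glutathione import, 1.68-fold higher in BAT, and 4 above, or 1 and 2 in the deposited FPKM. Slc25a10, the dicarboxylate carrier, was the farthest above, 23.01-fold on an estimated 9 fragments in BAT, and was named after its value was seen. Genes of branched-chain amino acid breakdown (4 below and 3 above of 22) and the tricarboxylic acid cycle (5 and 1 of 19) went both ways. In the deposited FPKM 0 of either list lay below and 1 of each above, and after quantile normalization 3 tricarboxylic acid cycle genes lay below and 4 above. Sdhb and Sdhc, subunits of succinate dehydrogenase, were 1.54-fold and 1.53-fold higher in BAT, and Mcee, of propionate handling, 2.07-fold. Hspe1, a mitochondrial co-chaperonin, was 2.03-fold higher in BAT.

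Several members outside the lists, or not reached by the naming rule, also met the rule under all 5 scalings. They were named after their values were seen. Hsd11b1, which regenerates active glucocorticoid inside cells, had scaled FPKM of 18.5, 74.5 and 47.6 in inguinal WAT, 48.5 and 51.5 in perigonadal WAT and 4.62, 6.40 and 10.6 in BAT, 6.69-fold higher in WAT. Its lowest library of WAT, inguinal replicate 1, was 1.75-fold above the highest BAT library. Abcd2, which brings very long-chain fatty acids into peroxisomes, had 5.66, 7.15 and 3.48 in inguinal WAT, 12.3 and 6.79 in perigonadal WAT and 0.158, 0.162 and 0.498 in BAT. Hephl1, a copper-dependent ferroxidase, had 2.10, 8.04 and 11.4 in inguinal WAT, 4.55 and 11.6 in perigonadal WAT and 0.134, 0.133 and 0.273 in BAT. Both were near 0 in BAT, on an estimated 4.5 fragments for Abcd2 and 4 for Hephl1 over the BAT group. Ptger3, the EP3 receptor for prostaglandin E2, had 1.72, 5.62 and 3.41 in inguinal WAT, 9.22 and 7.39 in perigonadal WAT and 0.344, 0.594 and 0.297 in BAT, with 4 fragments in BAT, and was highest in the perigonadal libraries. Cd63, a tetraspanin of late endosomes, and App, the amyloid precursor protein, were 5.29-fold and 5.14-fold higher in WAT. On the lower side, Bola3, which takes part in the making of mitochondrial iron-sulfur proteins, had 31.6, 47.1 and 42.4 in inguinal WAT, 28.7 and 36.8 in perigonadal WAT and 99.5, 125 and 87.4 in BAT. Hscb, a co-chaperone of iron-sulfur cluster assembly, had 1.65, 1.79 and 4.27 in inguinal WAT, 2.86 and 2.71 in perigonadal WAT and 7.43, 8.52 and 6.81 in BAT. Both stood below BAT in every WAT library, by 1.86-fold and 1.59-fold at the nearest values. Gmpr, GMP reductase, and Cib2, a calcium-binding protein, were 2.69-fold and 2.93-fold higher in BAT.

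The white depots were then compared with each other over all genes. Over all 8958 tested genes, limma with Benjamini-Hochberg adjustment called 28 higher in inguinal than in perigonadal WAT (0.313%) and 0 lower (0%), with 430 and 249 at an unadjusted p under 0.05. Among the members it called 4 higher, all of them above BAT, and 0 lower. Acta2 (chr19:34315581-34329826), smooth muscle alpha-actin, had 74.1, 33.8 and 47.2 in inguinal WAT, 1.18 and 0.743 in perigonadal WAT and 0.00142, 0.00508 and 0.678 in BAT (log2 difference 4.68, SE 0.34, adjusted p = 0.000113). The inguinal libraries held nearly all of it, and its perigonadal values rested on an estimated 11.7 fragments and its BAT values on 1.4. Tagln (chr9:45737711-45744141), transgelin, which binds actin in smooth muscle cells, had 17.8, 7.72 and 13.2 in inguinal WAT, 0.700 and 0.691 in perigonadal WAT and 0, 0 and 0 in BAT (log2 difference 2.97, SE 0.31, adjusted p = 0.00207). Csrp1, which also binds the actin cytoskeleton, had 21.1, 17.6 and 13.2 in inguinal WAT, 3.73 and 4.49 in perigonadal WAT and 2.51, 1.70 and 2.78 in BAT (log2 difference 1.82, SE 0.25, adjusted p = 0.00984). Ltf (chr9:110921796-110945270), lactoferrin, a milk protein, had 9.54, 17.7 and 14.5 in inguinal WAT, 0.0736 and 0.150 in perigonadal WAT and 0, 0 and 0 in BAT (log2 difference 3.71, SE 0.27, adjusted p = 0.000113).

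Acta2, Tagln, Ltf and Csrp1 reached the minimum mean through the inguinal libraries alone. In the 4 called genes the perigonadal libraries lay close to BAT, so their place among the genes shared by both depots rested on small perigonadal values: 9 fragments for Tagln and 2 for Ltf in all. Against a floor of 3 fragments over the BAT group, which was listed at 0, inguinal WAT was at least 38.5-fold higher for Tagln and at least 65.8-fold for Ltf, for counting error only. Tagln overlaps Pcsk7 on the other strand by 95 nt. The smooth muscle and mammary markers that follow the same libraries are given above, and their part in these 4 calls was not tested. With 1 perigonadal library left out, the other is assumed to vary like the other groups. Leaving out perigonadal replicate 1 ended the calls of Tagln (limma adjusted p = 0.0536) and Csrp1 (0.164), and that of Csrp1 was also lost without inguinal replicate 1 (0.0541) or perigonadal replicate 2 (0.0624), in the deposited FPKM (0.270) and with the replicate block (0.0581). With a pseudocount of 0.1 the calls of Acta2 and Csrp1 were lost (both 0.0501). The other 352 members above BAT and all tested members below it were not called, which does not show that the depots were alike. At an unadjusted p under 0.05, 8 members above BAT were higher in inguinal WAT and 35 lower, and of those below BAT 67 were higher and 3 lower. Members below BAT were short, and in the shortest bin of genes the level relative to the typical library was 0.603 in perigonadal replicate 1 and 0.791 in replicate 2, beside 0.855 to 1.02 in inguinal WAT; its part in these counts was not tested.

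**Figure D5:**
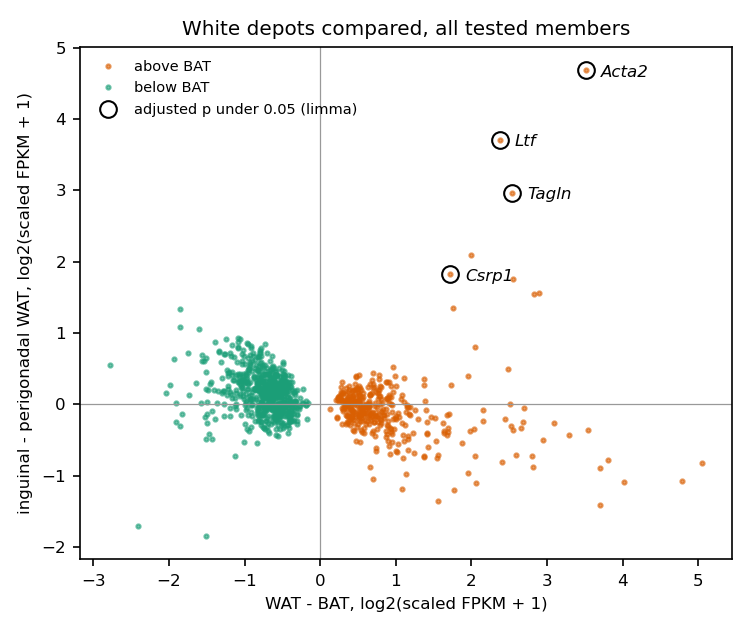
Each point is a member tested between the white depots. The horizontal axis is the difference between WAT and BAT and the vertical axis that between inguinal and perigonadal WAT, both as log2(scaled FPKM + 1). Orange points lay above BAT and green below. Circles mark the 4 genes called by limma (Acta2, Ltf, Tagln and Csrp1), which lie at 1.82 to 4.68 on the vertical axis.

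At the border of the rule, Ctnnd1 and Sntb1 were just inside above BAT with WAT means of 5.01 and 5.08, and Arhgap1 and Crtap just outside with 4.99 and 4.97. Below BAT, Ebf2 and Bcl3 were just inside with BAT means of 5.03 and 5.04, and Slain2 and Fam86 just outside with 4.98 and 4.98. On the chromosomes, 71 pairs of members were direct neighbours in the annotation once genes with predicted, clone and small RNA names were left out. Of all members 36.9% lay above BAT and 63.1% below. In 12 of these pairs both lay above BAT, in 35 both below, and in 24 the members went opposite ways.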

How the data were processed

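RNA from UCP1-TRAP purification was sequenced in 8 libraries. Per the submitters' processing notes, TopHat aligned the reads to mm9 and Cufflinks computed the values. Versions and options: not given in the sources used here. Each deposited file held the authors' FPKM for 28702 transcripts, with confidence bounds. FPKM was summed per gene and scaled by the median ratio over 8577 genes above 0 in all libraries. The scaled FPKM, its means, SDs and ratios were computed here from those values. For genes with 1 transcript, fragments were recovered from the bounds, and 83.9 to 92.8 percent of low values came out whole within 0.05.

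Inguinal and perigonadal WAT were compared by limma with a variance trend, on log2(scaled FPKM + 1), two-sided, with 3 groups in 1 model, on 8958 genes with a transcript of at least 300 nt and 2 or more libraries at a deposited FPKM of 1 or more. Calls had a Benjamini-Hochberg adjusted p under 0.05. The procedure was also run on simulated data with 200 changed genes, none of them near 0 in mean. Its outcome is not given here, and it does not bear on called genes with perigonadal values near 0.

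The members and the 49 gene and 14 marker lists were chosen with earlier results of these data known. Named genes were, per direction, the 12 with the largest log2 difference and the 3 most abundant, up to 4 abundant members of each list with at least 2, up to 6 called per direction between the white depots, 2 on either side of the minimum, and Ucp1, Cidea, Dio2, Ppargc1a, Adipoq, Fabp4 and Lep. Predicted, clone and small RNA names were left out. Promoters are RefSeq windows of GRCm38.p6, while gene coordinates are mm9. Strand use in counting is not given, so overlapping genes are uncertain.

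Alternatives were pseudocounts of 0.1 and 5, other filters and minimum means, no scaling, quantile scaling, equal totals without the 10 most abundant genes, scaling within 10 length bins (added after seeing the data), the most abundant transcript, a fit of the WAT libraries, a replicate block, no variance trend, and each library left out. The analysis used R 4.3.3, limma 3.58.1, Python 3.11.15, pandas 2.3.3, numpy 2.4.6 and matplotlib 3.10.9.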

Additional observations from a re-analysis of the deposited data

Results flagged for a closer look

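In 4 genes above BAT the white depots departed from BAT by unequal amounts, by the limma test of inguinal against perigonadal WAT. The log2 difference was 4.68 for Acta2 (adjusted p = 0.000113), 3.71 for Ltf (0.000113), 2.97 for Tagln (0.00207) and 1.82 for Csrp1 (0.00984). In each of them all 3 inguinal libraries exceeded both perigonadal ones. All 4 reached the minimum mean through the inguinal libraries alone, so the choice of members favoured a higher inguinal level in them. The calls of Acta2, Tagln and Csrp1 were lost under some of the other settings given above.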

How the results depend on the processing

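Members above BAT numbered 212 in the deposited FPKM, 630 with equal totals, 742 at a minimum mean of 1 and 209 at a minimum of 10, against 356. Members below BAT numbered 144 in the deposited FPKM and 355 with equal totals, against 610. With 1 library left out there were 374 to 462 above and 600 to 883 below, and 318 of the 356 and 574 of the 610 remained members in all 8 such settings. Between the white depots limma called 2 members with a pseudocount of 0.1 and 10 in the deposited FPKM, against 4, and 2 to 6 with 1 library left out. Over all genes it called 4 with a pseudocount of 0.1, 55 with no filter, 10 with a filter at 5 FPKM and 63 in the deposited FPKM, against 28, and 6 (without perigonadal replicate 1) to 39 with 1 library left out. It was 12 without inguinal replicate 1 and 17 without perigonadal replicate 2. Members called lower were 6 in the deposited FPKM, 2 with a pseudocount of 5 and 1 with no filter or without inguinal replicate 2, and 0 in the other settings. Deviations of same-numbered libraries correlated at -0.0971 to 0.116 over 7 pairs, and 4 of 8 libraries correlated best with their own number. Between inguinal WAT and BAT the same-numbered pairs had 0.116, 0.0641 and 0.0548, and the other pairs -0.0571 to -0.00832. The deviations of the 2 perigonadal libraries mirror each other by construction. Whether same-numbered libraries were paired cannot be told from these values. The fit with the replicate block called 10 genes and 3 members. Each of 84 checks took 1 of the 4 called members under 1 other setting, and the call was lost in 8 of them, with no change of sign. The losses fell under the pseudocount of 0.1, the deposited FPKM, the replicate block, and without inguinal replicate 1 or either perigonadal library. For the 12 members farthest above BAT and the 12 farthest below it, 306 of 312 differences moved by less than 1 SD of the 5 WAT values. The other named genes were not part of this check. Of 672 list counts 93 moved by over 1.5 times. The cause of these changes was not tested. Depth limited the values of genes near 0 in BAT.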
